A study of Homo sapiens with 40 samples.

Results

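The 8 genes CNOT1, CNOT2, CNOT3, CNOT4, CNOT10, CNOT11, RQCD1 and TNKS1BP1, the scaffold and non-catalytic subunits or partners of the Ccr4-Not complex, were taken by symbol from the 55765 symbols counted in each library. RQCD1 is the older symbol of CNOT9. All 40 libraries came from HEK293, an established human embryonic kidney cell line. In the RNA immunoprecipitation experiment (RIP), cells without siRNA gave total RNA and RNA recovered with antibodies against eIF4A1, eIF4A2 or DDX6 (IP), with 3 libraries per group. For the gradient experiment, 4 libraries each were made from input RNA, from fractions 1 to 5 of a sucrose gradient (subpolysomal) and from fractions 6 to 11 (polysomal), once with control siRNA and once with CNOT1 siRNA. A smaller experiment depleted TNRC6A together with TNRC6B, 2 libraries against 2 with control siRNA. Each target was depleted with 1 siRNA sequence, a mock IP was not analysed here, and p-values measure the spread between these libraries, which may be technical.

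Ccr4-Not is the main cytoplasmic deadenylase of human cells: it shortens poly(A) tails and represses translation of the mRNAs to which it is brought. Its deadenylase subunits and its other subunits are assembled along CNOT1, and the DEAD-box helicase DDX6 docks on a central domain of CNOT1. Loss of CNOT1 protein is known to destabilise other subunits at the protein level, which RNA-Seq does not measure. The question addressed here was whether the mRNAs of the partner subunits respond to CNOT1 siRNA in each gradient pool, and how the mRNAs of the complex itself are recovered with the 3 helicases.

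CNOT1 (GRCh37 chr16:58553855-58663789, minus strand) encodes the scaffold of 2376 residues. CNOT2 (chr12:70636782-70748773, plus strand) and CNOT3 (chr19:54641465-54659419, plus strand) encode the heterodimer that forms the NOT module on the C-terminal part of the scaffold. CNOT10 (chr3:32726637-32815367, plus strand) and CNOT11 (chr2:101869348-101886778, plus strand) encode the pair that binds the N-terminal part. RQCD1 (chr2:219433303-219461803, plus strand) encodes the armadillo-repeat subunit of 299 residues, which receives tryptophan-containing peptides of the TNRC6 proteins. CNOT4 (chr7:135046547-135194893, minus strand) encodes a RING-type E3 ubiquitin ligase that associates only loosely with the complex in human cells. TNKS1BP1 (chr11:57067112-57092426, minus strand) encodes a tankyrase-binding protein that copurifies with it.

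The bases just before the start codon are shown for the scaffold and for the 4 subunits with the most bases in purine tetramers there, because purine-rich tetramers near the end of the 5′UTR are a sequence feature that the study examined. Each sequence is the mRNA strand of the 30 bases of 5′UTR that end at the ATG, read from the canonical GENCODE transcript on GRCh37. Capitals mark bases covered by any of 8 purine tetramers, searched on the mRNA strand with overlaps allowed. The tetramers were AAGA and AGAA, then GAAA and AAAA with a run of A, then GAGA and AGAG with alternating bases, and lastly GGAA and GAAG.
CNOT10 (chr3:32726923-32726952, plus strand): gcagGGAAGAAcccgagtcGAAGcgGGAAG
CNOT3 (chr19:54646685-54646714, plus strand): tGAAGAGAGtgcgtctgtagggcagGGAAG
CNOT11 (chr2:101869397-101869426, plus strand): gccgGGAAGAGgGGAAGgggagcgaggttg
RQCD1 (chr2:219433648-219433677, plus strand): ctgtGGAAGAGAGcggcggccgctcacaac
CNOT1 (chr16:58633242-58633271, minus strand): ctcggccgcctgcttccgccccaaccagca

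Tetramers covered 16 bases in CNOT10, 13 in CNOT3, 12 in CNOT11, 9 in RQCD1, 5 in CNOT2 and 4 in CNOT4, and none in CNOT1 or TNKS1BP1. Among 10462 coding genes with at least 1 CPM in control input and a 5′UTR that long, 45% had a tetramer in the same window, so that 6 of the 8 members is a description of few genes and not a test. CNOT10 lay at percentile 99.1 of those windows for covered bases, CNOT3 at 97 and CNOT11 at 96. Over the whole 5′UTR CNOT1 had the most tetramers of the members, 4.03 per 100 bases without overlaps (percentile 90.8 of 11066 coding genes, median 1.65). TNKS1BP1 had 0. The coding sequences ran from 900 bases in RQCD1 to 7131 in CNOT1, against a median of 1452 over 11602 coding genes. CNOT3 and CNOT10 had short 3′UTRs of 274 and 264 bases (median of all genes 1446), whereas that of RQCD1 had 2804 bases.

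Total counts per library lay between 15.4 and 46 M (M, mega), and a member held 257 to 27224 counts in a library. Counting error was not compared with the spread between libraries. CPM below are counts divided by the TMM-adjusted library total in M. They are shares of the sequenced RNA, so that in these bulk samples fewer cells with an mRNA and less of it per cell cannot be told apart. Of the markers of the line, NEFM had a median of 2870 CPM, VIM of 421 and NEFL of 723, INA reached 13 and PAX2, a kidney marker, stayed at 0.0984 to 1.57. The summed level of the 5 HEK293 markers was 371 to 7490 CPM and that of 5 markers of other cell types 0.465 to 2.80, with PTPRC and CD3E at a median of 0.

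The targeted gene was checked in every gradient library first. In input RNA, CNOT1 stood at 687, 711, 661 and 627 CPM with control siRNA and at 41.4, 36.8, 39.9 and 40.4 CPM with CNOT1 siRNA. In subpolysomal RNA the values were 310, 317, 256 and 235 CPM against 89.5, 82.8, 73.5 and 77.3 CPM. In polysomal RNA they were 470, 500, 28.3 and 478 CPM against 29, 24, 631 and 31.6 CPM. Both polysomal libraries labelled replicate 3 thus went against their labels: the library labelled control siRNA held as little CNOT1 as the CNOT1 siRNA libraries, and the library labelled CNOT1 siRNA held more than any other polysomal library. Most partners differed in that pair too, with CNOT3 at 186 CPM in the library labelled control and 107 CPM in the library labelled CNOT1 siRNA. CNOT2 was at 133 and 103 CPM, CNOT4 at 48.1 and 33.1, CNOT10 at 102 and 79.1, and TNKS1BP1 at 60.3 and 37.7. RQCD1 was closer, at 194 and 181 CPM, and CNOT11 was nearly equal, at 92.4 and 94 CPM. Both libraries were left out of the fit of the gradient experiment, whose 22 other libraries share 1 estimate of the spread, and results with them as labelled are given beside those without. Since CNOT1 itself led to the exclusion, its polysomal values are a description.

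**Figure D1:**
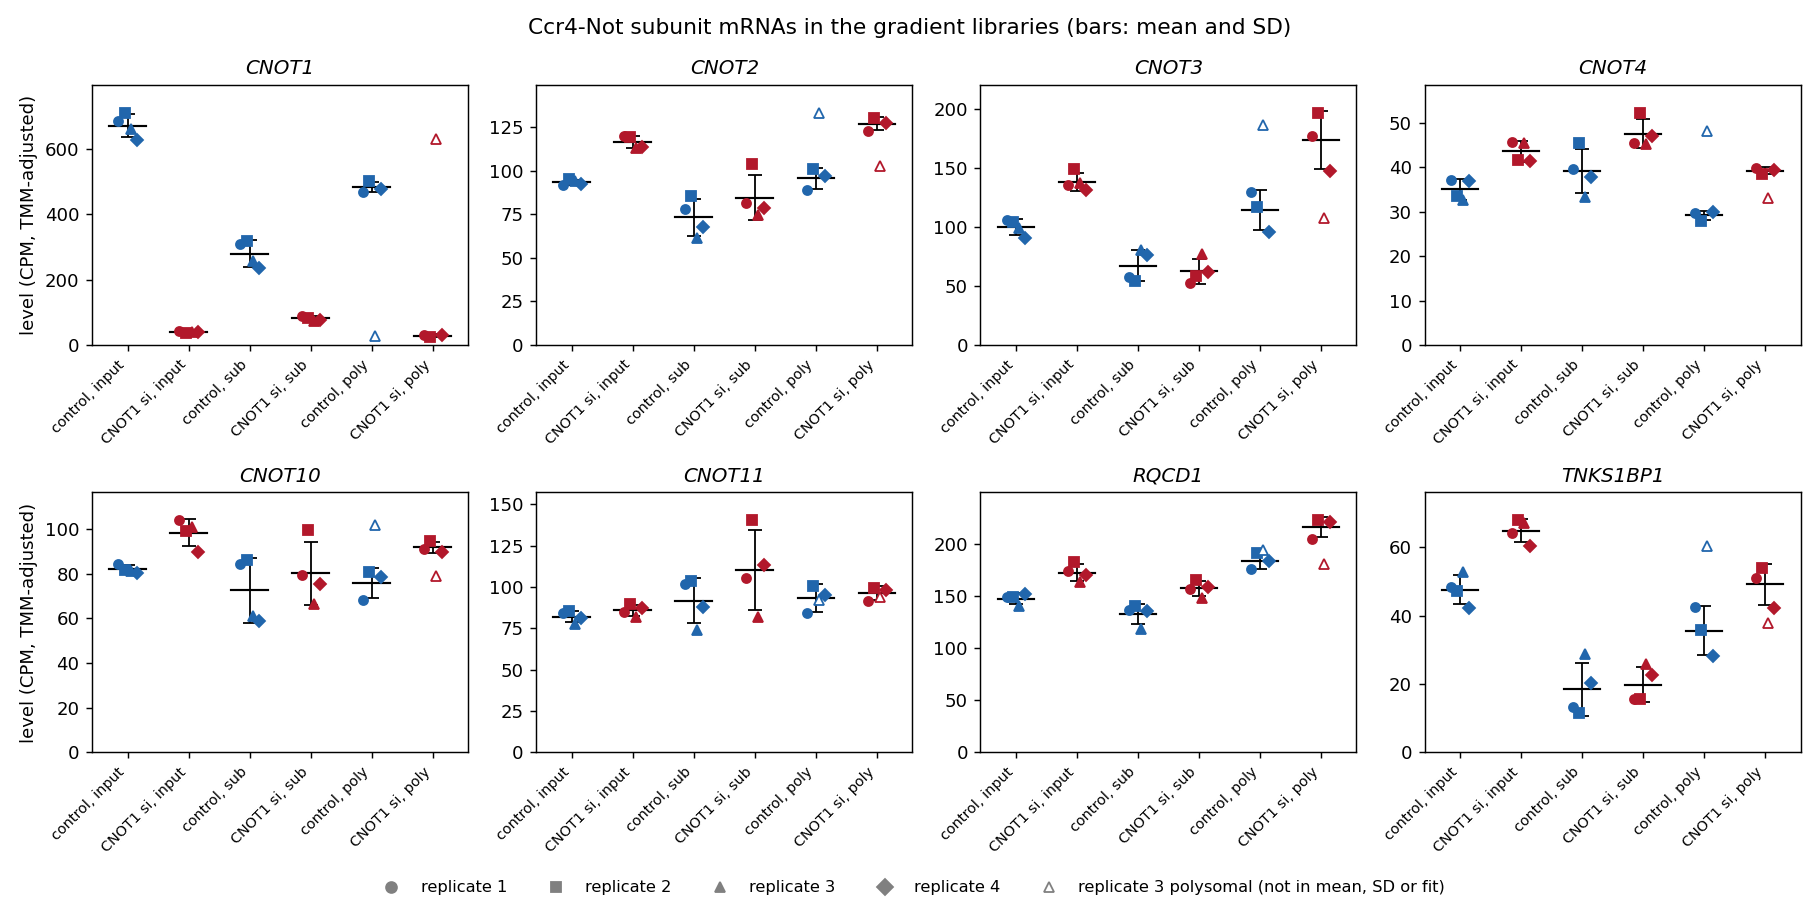
Level of the 8 mRNAs (CPM, linear axes from 0) in the input, subpolysomal (sub) and polysomal (poly) libraries with control siRNA (blue) or CNOT1 siRNA (red); marker shapes are replicate numbers, bars the mean and SD. The open triangles are the polysomal replicate 3 pair, in which CNOT1 is at 28.3 CPM in the library labelled control and 631 CPM in the library labelled CNOT1 siRNA.

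CNOT1 mRNA was depleted less in subpolysomal RNA than in input RNA. CNOT1 siRNA left 5.9% of the control level in input RNA (replicates 5.18 to 6.44%), which is -4.08 on the log2 scale (SE 0.11, edgeR FDR 1.01e-17). In subpolysomal RNA 28.9% was left (26.1 to 32.9%), which is -1.79 on the log2 scale (SE 0.10, FDR 1.02e-10). In polysomal RNA 5.85% was left (4.8 to 6.61% in 3 replicates, log2 -4.10, SE 0.13). The difference between the subpolysomal and the input effect was 2.29 on the log2 scale (SE 0.14, FDR 6.15e-10), a contrast in which 13.1% of all 17115 genes were called in either direction, 6.33% higher and 6.77% lower. With the suspect pair in the fit as labelled the estimate was again 2.29, but the FDR was 0.232, and that of the subpolysomal effect was 0.065.

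The order of the pools turned with the siRNA. With control siRNA the CNOT1 level was highest in input (671 ± 35.7 CPM, SD, n = 4), then in polysomal RNA (483 ± 15.8 CPM, n = 3) and lowest in subpolysomal RNA (280 ± 40.3 CPM, n = 4). With CNOT1 siRNA it was highest in subpolysomal RNA (80.8 ± 6.97 CPM, n = 4), then in input (39.6 ± 1.99 CPM, n = 4) and lowest in polysomal RNA (28.2 ± 3.88 CPM, n = 3). No 2 neighbours in these orders overlapped, but for polysomal RNA this depends on leaving out the suspect pair, which was chosen by its CNOT1 values. With that pair as labelled, polysomal CNOT1 spanned 28.3 to 500 CPM with control siRNA and 24 to 631 CPM with CNOT1 siRNA. Between same-numbered libraries 1, 2 and 4 the log2 ratio of polysomal to subpolysomal CPM was 0.598, 0.657 and 1.02 with control siRNA and -1.63, -1.79 and -1.29 with CNOT1 siRNA. Exons of SETD6 on the opposite strand cover 12.5% of the CNOT1 exon bases, and the strand option of the counting is not given in the sources used here, so reads of SETD6 in that stretch were not told apart. The same holds for CNOT3, where exons of LENG1 on the opposite strand cover 7.64% of the exon bases.

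The partner mRNAs were slightly higher in input RNA of cells with CNOT1 siRNA. All 7 had positive log2 fold changes, between 0.07 and 0.47 with a median of 0.32 (median of all 17115 genes -0.02), and 4 passed the test, all of them higher: CNOT2, CNOT3, CNOT4 and RQCD1. Over all genes 40.6% were called, 19.6% higher and 21% lower. With the replicate number as a block 6 partners passed, since CNOT10 (FDR 0.0418) and TNKS1BP1 (FDR 0.0402) were added, in a fit that called 46.1% of all genes. Every one of the 28 ratios of same-numbered libraries was above 0 on the log2 scale. The share of all genes with such ratios, or with groups that do not overlap, was not counted here or in the other comparisons. Both are descriptions of the members. With the suspect polysomal pair in the fit as labelled, which leaves the input values as they are but raises the shared spread, no partner but RQCD1 was called. That fit called 29% of all genes in this comparison.

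Both NOT module mRNAs rose in input. CNOT3 stood at 106, 105, 98.8 and 90.4 CPM with control siRNA and at 135, 149, 137 and 131 CPM with CNOT1 siRNA. The groups did not overlap, and the log2 fold change was 0.47 (SE 0.13, FDR 0.00599). CNOT2 stood at 91.6, 94.9, 93.9 and 92.4 CPM against 120, 119, 113 and 114 CPM. The 2 groups were again apart, with a log2 fold change of 0.32 (SE 0.10, FDR 0.0115).

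RQCD1, the TNRC6-binding subunit, rose from 150, 149, 140 and 152 CPM to 174, 183, 164 and 170 CPM (log2 0.22, SE 0.07, FDR 0.0120), without overlap. Without a filter on low counts its FDR was 0.138. CNOT4, the ubiquitin ligase, rose from 37.1, 33.5, 32.6 and 36.9 CPM to 45.8, 41.7, 45.4 and 41.5 CPM (log2 0.32, SE 0.09, FDR 0.00552), also without overlap. Of the N-terminal pair, CNOT10 went from 82 ± 1.75 to 98.4 ± 6.18 CPM (SD, n = 4, log2 0.26, FDR 0.0791), and CNOT11 from 82.1 ± 3.42 to 86 ± 3.32 CPM (log2 0.07, 95% interval -0.17 to 0.30, FDR 0.680). The difference between these 2 genes was not tested. TNKS1BP1 went from 48.2, 47.1, 52.8 and 42.2 CPM to 64.2, 67.9, 66.9 and 60.3 CPM. Its groups did not overlap and its log2 fold change of 0.45 was close to that of CNOT3, but its SE of 0.20 in the fit over all pools left it at an FDR of 0.0773. With only the input libraries in the fit TNKS1BP1 (FDR 4.17e-05) and CNOT10 (FDR 0.000784) both passed, and without a filter on low counts TNKS1BP1 did (FDR 0.0015). The input-only fit called 60.5% of all genes and the unfiltered fit 19.4%.

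**Figure D2:**
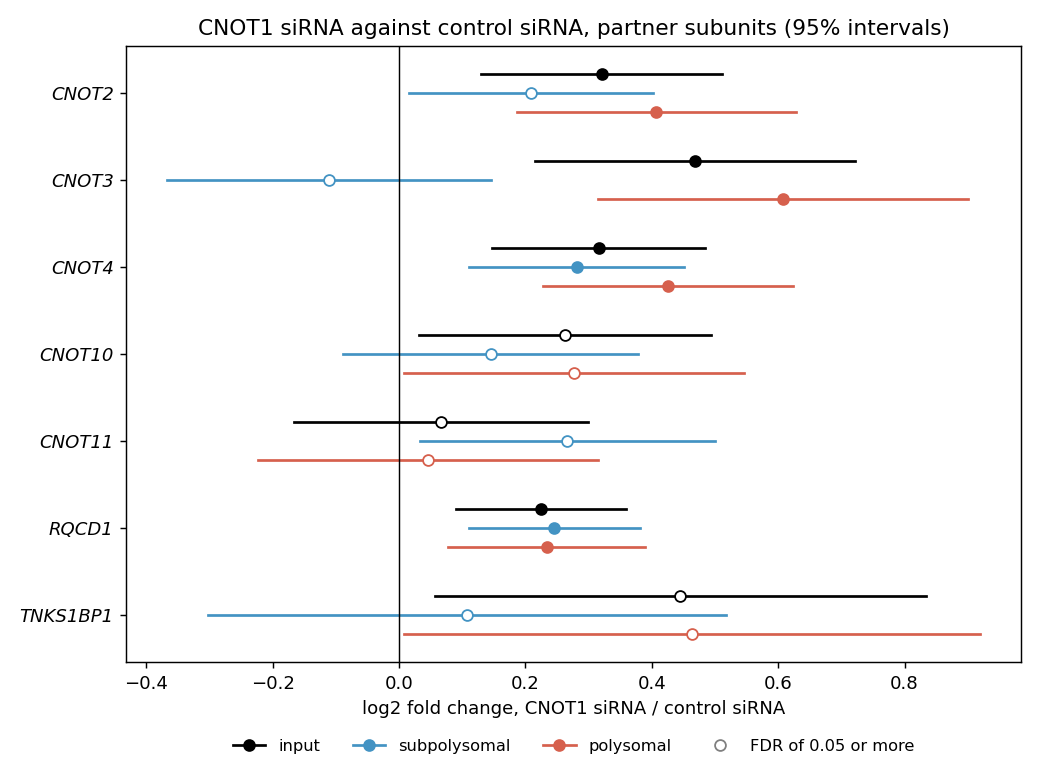
Log2 fold change between CNOT1 siRNA and control siRNA for the 7 partner mRNAs in input, subpolysomal and polysomal RNA, with 95% intervals from the fit across all genes; filled points have an FDR below 0.05. In subpolysomal RNA CNOT3 lies at -0.11, whereas in input and polysomal RNA it lies at 0.47 and 0.61.

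In subpolysomal RNA only CNOT4 and RQCD1 passed the test among the partners, both higher. Of all genes 42.2% were called there, 17.6% higher and 24.5% lower. CNOT4 stood at 39.7, 45.5, 33.4 and 37.9 CPM with control siRNA and at 45.5, 52.3, 45.4 and 47.1 CPM with CNOT1 siRNA (log2 0.28, SE 0.09, FDR 0.0123). These groups overlapped slightly, since the highest control library (45.5 CPM) lay just above the lowest CNOT1 siRNA library (45.4 CPM). RQCD1 stood at 137, 141, 119 and 136 CPM against 158, 166, 149 and 159 CPM, without overlap (log2 0.25, SE 0.07, FDR 0.00659). Both calls were lost without a filter on low counts (FDR 0.0821 and 0.0943) and with only the subpolysomal libraries in the fit (FDR 0.113 and 0.101). Those fits called 20% and 26.9% of all genes. With the replicate block CNOT2 (log2 0.21, FDR 0.0377) and CNOT11 (log2 0.26, FDR 0.0219) passed as well, so that 4 partners were called higher in a fit that called 47.7% of all genes. Those 2 also passed without control replicate 2 (FDR 0.0201 and 0.0411) or without CNOT1 siRNA replicate 3 (FDR 0.0442 and 0.00712).

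Subpolysomal libraries differed among themselves in a way that touched the members. Replicates 1 and 2 held 24 to 27.3 M counts and replicates 3 and 4 held 15.9 to 17.7 M. TNKS1BP1 with control siRNA was at 13.3 and 11.7 CPM in replicates 1 and 2 and at 28.7 and 20.2 CPM in replicates 3 and 4, and CNOT3 was at 57.9 and 54.4 CPM against 80.8 and 76 CPM. CNOT10 went the other way, with 84.5 and 86 CPM against 61 and 58.9 CPM. The part of this split in the results was not tested. The replicate block cannot decide it, since it gives a replicate number the same shift in input, subpolysomal and polysomal RNA. Deviations of same-numbered control libraries correlated at r = -0.471 to 0.236 between subpolysomal and polysomal RNA. Between input and subpolysomal RNA r was -0.122 to 0.384. The calls of CNOT2 and CNOT11 with the block carry the same limit in subpolysomal RNA. CNOT3 had a log2 fold change of -0.11 (95% interval -0.37 to 0.15, FDR 0.523) between the siRNAs in this pool. Its ratio of same-numbered libraries was above 0 in 1 of 4.

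In polysomal RNA all 7 partners again had positive log2 fold changes, with a median of 0.41 (all genes 0.00), and 4 were called higher, a list that held both NOT module mRNAs, CNOT4 and RQCD1 as in input. Of all genes 31.7% were called, 17.1% higher and 14.6% lower. The split of all calls turned with the scaling, from 2929 higher and 2501 lower genes with TMM to 2253 and 3076 with RLE factors, while the signs of the partners were kept except that of CNOT11. CNOT3 stood at 130, 117 and 96 CPM with control siRNA and at 177, 197 and 148 CPM with CNOT1 siRNA (log2 0.61, SE 0.15, FDR 0.00343). CNOT4 stood at 29.7, 28 and 29.9 CPM against 40, 38.4 and 39.4 CPM (log2 0.43, SE 0.10, FDR 0.00254). CNOT2 stood at 89, 101 and 97 CPM against 123, 130 and 127 CPM (log2 0.41, SE 0.11, FDR 0.00806). None of these 3 pairs of groups overlapped.

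RQCD1 in polysomal RNA, at 177, 192 and 184 CPM against 206, 223 and 222 CPM, had a log2 fold change of 0.23 (SE 0.08, FDR 0.0278). That call was the least firm: it was lost with DESeq2 (log2 0.15, FDR 0.147), RLE factors (FDR 0.183) and no filter (FDR 0.245), and without control replicate 1 (FDR 0.109) or 4 (0.0687) or CNOT1 siRNA replicate 2 (0.0943) or 4 (0.0824). CNOT10 (log2 0.28, FDR 0.131), TNKS1BP1 (log2 0.46, FDR 0.135) and CNOT11 (log2 0.05, FDR 0.832) did not pass. With only the polysomal libraries in the fit CNOT10 (FDR 0.0291) and TNKS1BP1 (FDR 0.0340) did, and TNKS1BP1 also without a filter (FDR 0.00778). The polysomal-only fit called 40.7% of all genes and the unfiltered fit 14.8%. With the replicate 3 pair included as labelled no member and no gene of 16776 was called, and the log2 fold change was 0.25 for CNOT3, 0.20 for CNOT2 and 0.15 each for CNOT4 and RQCD1.

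CNOT3 was the only partner with a called difference in response between pools. Its effect in subpolysomal RNA was lower than in input by a log2 difference of -0.58 (SE 0.18, FDR 0.0386), and its effect in polysomal RNA was higher than in subpolysomal RNA by 0.72 (SE 0.20, FDR 0.0141). In the first contrast 13.1% of all genes were called, 6.33% higher and 6.77% lower. In the second contrast 17.5% of all genes were called, 10.1% higher and 7.48% lower. With 1 of 7 partners called in each, the count was near the share of all genes called in either direction. Neither call was firm. The first was lost when any of 11 libraries was left out, with log2 values of -0.48 to -0.60 and FDR of 0.0518 to 0.0832: control input replicate 2, 3 or 4, CNOT1 siRNA input replicate 1, 2 or 3, control subpolysomal replicate 3 or 4, and CNOT1 siRNA subpolysomal replicate 1, 2 or 4. The second was lost without control polysomal replicate 4 (0.61, FDR 0.0503), without CNOT1 siRNA polysomal replicate 2 (0.62, FDR 0.0528) and in a fit of only the compared libraries (FDR 0.0631). With the suspect pair as labelled the FDR values were 0.220 and 0.436.

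Polysome association of the members was compared in cells with control siRNA. Relative to subpolysomal RNA, 5 members were higher in polysomal RNA, namely CNOT1, CNOT2, CNOT3, RQCD1 and TNKS1BP1, and CNOT4 was lower. Since the CNOT1 values led to the exclusion of the suspect pair, the CNOT1 call is a description. As 72.1% of all genes were called, 33.3% higher and 38.8% lower, a call by itself is common in this comparison. TNKS1BP1 had the largest log2 ratio, 0.96 (SE 0.22, FDR 5e-04), with 42.6, 35.9 and 28.3 CPM in polysomal against 13.3, 11.7, 28.7 and 20.2 CPM in subpolysomal RNA. These groups overlapped, since subpolysomal replicate 3 exceeded polysomal replicate 4.

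CNOT3 (log2 0.76, SE 0.14, FDR 3.81e-05) and CNOT2 (log2 0.39, SE 0.11, FDR 0.00240) were both higher in polysomal RNA. Between same-numbered control libraries 1, 2 and 4 the log2 ratios varied, at 1.16, 1.1 and 0.338 for CNOT3 and 0.193, 0.234 and 0.516 for CNOT2. The N-terminal pair was near even on average, with log2 fold changes of 0.06 for CNOT10 (FDR 0.684) and 0.02 for CNOT11 (FDR 0.871). Their ratios differed in sign between the libraries, at -0.312, -0.0869 and 0.415 for CNOT10 and -0.269, -0.038 and 0.112 for CNOT11. RQCD1 was the steadiest member by these ratios, at 0.368, 0.449 and 0.441 with control siRNA and 0.384, 0.428 and 0.479 with CNOT1 siRNA. The numbers were not taken to pair polysomal with subpolysomal control libraries, so the ratios are descriptions. CNOT4 was below 0 in every one of its ratios, at -0.418, -0.701 and -0.339 with control siRNA (log2 fold change -0.42, SE 0.10, FDR 0.000399) and at -0.188, -0.445 and -0.259 with CNOT1 siRNA. With the suspect pair as labelled CNOT4 (-0.21, FDR 0.176) and CNOT1 (0.40, FDR 0.629) lost their calls.

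**Figure D3:**
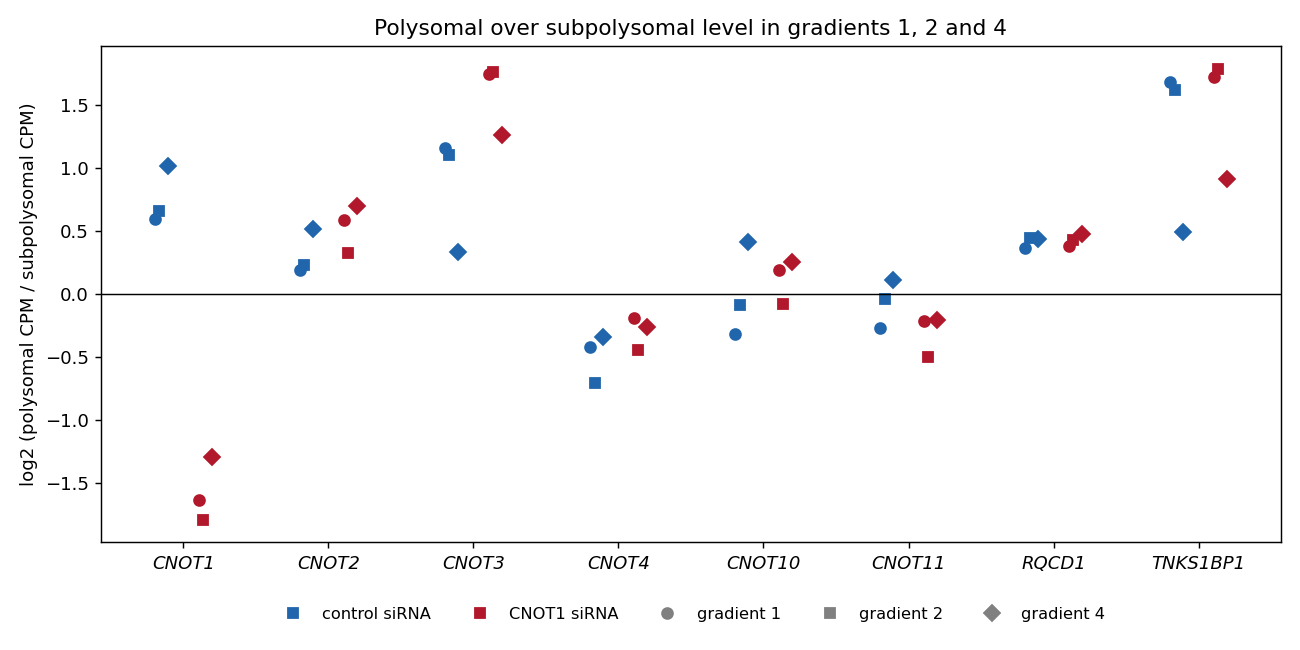
Log2 ratio of polysomal to subpolysomal CPM for each mRNA between same-numbered libraries 1, 2 and 4 (marker shapes, drawn as gradients), with control siRNA in blue and CNOT1 siRNA in red. The numbers were not taken to pair these pools with control siRNA. CNOT1 lies above 0 with control siRNA (0.598 to 1.02) and below 0 with CNOT1 siRNA (-1.79 to -1.29). RQCD1 lies between 0.368 and 0.479 in all 6 ratios.

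Compared per kilobase of the canonical mRNA, CNOT1 had the highest level of the members in control input, 79.8 ± 4.25 CPM per kb (SD, n = 4). RQCD1 followed with 38.7 ± 1.33 CPM per kb, CNOT3 with 35.5 ± 2.51, CNOT2 with 32.8 ± 0.53, CNOT11 with 32.7 ± 1.36 and CNOT10 with 29.6 ± 0.633. CNOT4 and TNKS1BP1 were much lower, at 9.91 ± 0.647 and 8.18 ± 0.749 CPM per kb. CNOT2 and CNOT11 differed by less than the SD of CNOT11, and the order below CNOT1 depended on the transcript taken as the length. Per kilobase of all annotated exons CNOT11 stood at 30.4, RQCD1 at 28, CNOT10 at 16.9, CNOT3 at 14.7 and CNOT2 at 6.66 CPM per kb.

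In the RIP experiment CNOT2, CNOT4 and CNOT10 were lower than in total RNA with each antibody, and RQCD1 was higher with each. Each IP was set against the same 3 total RNA libraries, so that the 3 comparisons are not independent of each other. In the eIF4A1 IP 5 members were lower (CNOT1, CNOT2, CNOT3, CNOT4 and CNOT10) and RQCD1 was higher, against 52.6% of 17474 genes called, 26.1% higher and 26.5% lower. In the eIF4A2 IP 4 were lower (CNOT2, CNOT3, CNOT4 and CNOT10) and RQCD1 was higher, against 50.3% of all genes called, 24.5% higher and 25.8% lower. In the DDX6 IP 4 were lower (CNOT2, CNOT4, CNOT10 and TNKS1BP1) and RQCD1 was higher, against 46% of all genes called, 22.7% higher and 23.3% lower. The median log2 fold change of the 8 members was -0.73, -0.42 and -0.41 in the 3 IPs, where that of all genes was 0.04, 0.01 and 0.01.

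RQCD1, the subunit that contacts TNRC6, was the only member above its total RNA level in each IP. It stood at 145, 161 and 129 CPM in total RNA, at 211, 240 and 224 CPM with eIF4A1, at 171, 207 and 215 CPM with eIF4A2 and at 222, 247 and 226 CPM with DDX6. No IP library overlapped the total RNA libraries. The log2 fold change was 0.64 (SE 0.14, FDR 0.00172) with eIF4A1, 0.45 (SE 0.14, FDR 0.0148) with eIF4A2 and 0.68 (SE 0.14, FDR 0.00142) with DDX6. The eIF4A2 call was lost without total RNA replicate 3 (0.37, FDR 0.0582), without eIF4A2 IP replicate 2 (0.41, FDR 0.0501) or 3 (0.38, FDR 0.0520) and with no filter (FDR 0.0528).

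CNOT10 was the most evenly depleted member. It stood at 94.5, 93.1 and 93.7 CPM in total RNA, at 48.3, 51.1 and 48.3 CPM with eIF4A1, at 51.5, 53.3 and 52.7 CPM with eIF4A2 and at 54, 59.1 and 55 CPM with DDX6. All IP libraries were below all total RNA libraries. The log2 fold changes were -0.93 (FDR 1.63e-05), -0.84 (FDR 3.32e-05) and -0.74 (FDR 0.000138), each with an SE of 0.11. Its N-terminal module partner CNOT11 passed the test in none of the 3 IPs, with log2 fold changes of 0.09, 0.16 and -0.06 and 95% intervals that lay between -0.33 and 0.44.

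**Figure D4:**
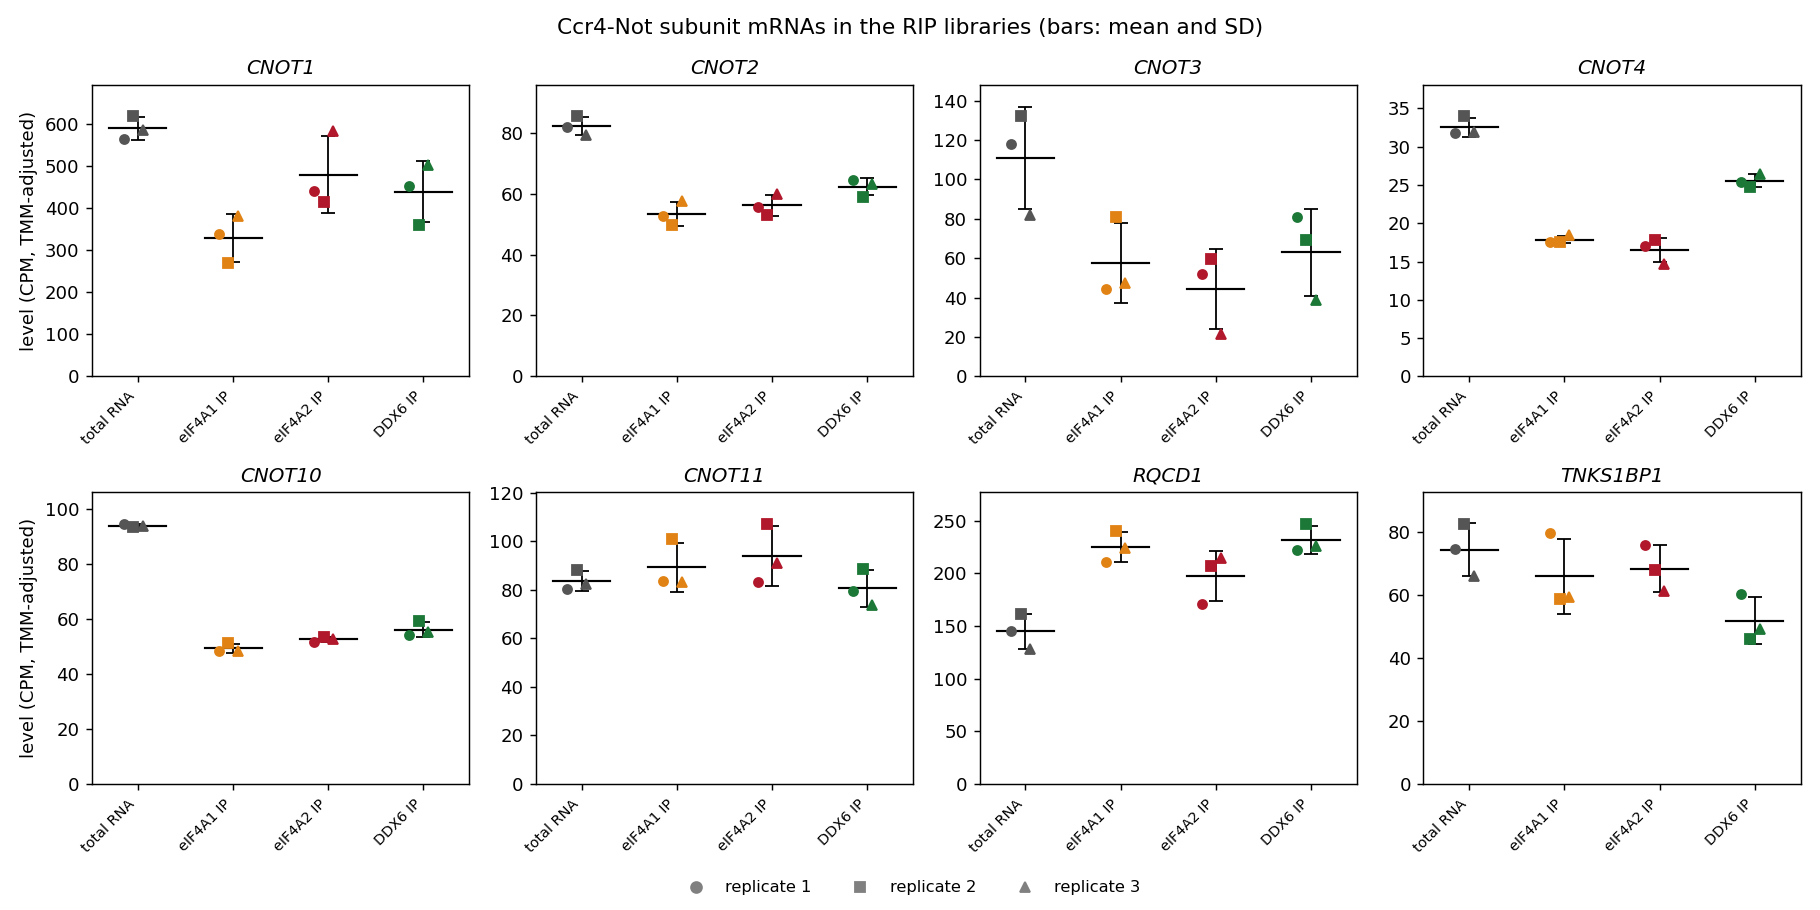
Level of the 8 mRNAs (CPM, linear axes from 0) in total RNA and in the eIF4A1, eIF4A2 and DDX6 IPs; marker shapes are replicate numbers, bars the mean and SD (n = 3). RQCD1 lies between 171 and 247 CPM in the IPs and between 129 and 161 CPM in total RNA, and CNOT10 lies between 48.3 and 59.1 CPM against 93.1 to 94.5 CPM.

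The NOT module mRNAs were both depleted, with unlike precision. CNOT2 stood at 81.9, 85.4 and 79.3 CPM in total RNA, at 52.6, 49.8 and 57.6 CPM with eIF4A1, at 55.5, 53 and 59.9 CPM with eIF4A2 and at 64.3, 59 and 63.3 CPM with DDX6. The IP libraries did not overlap total RNA, and the log2 fold changes were -0.62 (FDR 0.000562), -0.55 (FDR 0.00139) and -0.40 (FDR 0.0117). Without a filter on low counts the DDX6 value had an FDR of 0.0881. CNOT3 stood at 118, 132 and 82 CPM in total RNA, at 44.1, 81 and 47.3 CPM with eIF4A1, at 52.2, 59.7 and 21.4 CPM with eIF4A2 and at 80.9, 69.4 and 38.5 CPM with DDX6. It varied most between libraries of a group, and replicate 3 was low in total RNA and in the eIF4A2 and DDX6 IPs.

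The log2 fold change of CNOT3 was -0.95 (SE 0.37, FDR 0.0438) with eIF4A1, -1.32 (SE 0.37, FDR 0.00919) with eIF4A2 and -0.82 (SE 0.37, FDR 0.0830) with DDX6. With the replicate block the DDX6 value was -0.84 (FDR 0.00334) and the 3 IPs were all called. It was also called with no filter (FDR 6.56e-05) and in a fit of total RNA and the DDX6 IP alone (FDR 0.0202). For the DDX6 IP the block called 60% of all genes, the unfiltered fit 26.5% and the last fit 51.4%. The eIF4A1 call was lost without total RNA replicate 1 (-0.90, FDR 0.0984) or 2 (-0.80, FDR 0.131) and without eIF4A1 IP replicate 1 (-0.79, FDR 0.140) or 3 (-0.82, FDR 0.120).

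CNOT1 had its lowest mean in the eIF4A1 IP, but the IPs did not differ for it in the main edgeR fit. Against the eIF4A1 IP its log2 difference was 0.54 with eIF4A2 (FDR 0.170) and 0.42 with DDX6 (FDR 0.333). It stood at 563, 617 and 586 CPM in total RNA, at 338, 268 and 380 CPM with eIF4A1, at 440, 414 and 583 CPM with eIF4A2 and at 452, 359 and 503 CPM with DDX6. Only the eIF4A2 libraries reached into the range of total RNA. The log2 fold changes were -0.84 (SE 0.18, FDR 0.00178), -0.30 (SE 0.18, FDR 0.187) and -0.43 (SE 0.18, FDR 0.0692). With the replicate block CNOT1 was also called lower with eIF4A2 (-0.32, FDR 0.0472) and with DDX6 (-0.45, FDR 0.0100), the latter also by DESeq2 (FDR 0.0417). The block called 62.4% of all genes with eIF4A2 and 60% with DDX6, and DESeq2 48.1% with DDX6. In these blocked fits the third total RNA library was taken as replicate 3 from its title, whereas its description says replicate 2.

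CNOT4 was below its total RNA level in each IP, and lowest with the eIF4A proteins. It stood at 31.9, 34 and 31.9 CPM in total RNA, at 17.6, 17.6 and 18.5 CPM with eIF4A1, at 17, 17.8 and 14.7 CPM with eIF4A2 and at 25.4, 24.7 and 26.4 CPM with DDX6. The log2 fold changes against total RNA were -0.87 (FDR 5.04e-05), -0.98 (FDR 1.84e-05) and -0.35 (FDR 0.0234). The DDX6 call was lost without total RNA replicate 1 (-0.37, FDR 0.0512) or 2 (-0.32, FDR 0.0775), without DDX6 IP replicate 1 (-0.35, FDR 0.0645) or 2 (-0.33, FDR 0.0740) and with no filter (FDR 0.161).

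TNKS1BP1 stood at 74.7, 82.7 and 66.1 CPM in total RNA, at 79.8, 58.8 and 59.5 CPM with eIF4A1, at 76, 67.9 and 61.2 CPM with eIF4A2 and at 60.3, 45.9 and 49.3 CPM with DDX6. The DDX6 libraries were all below total RNA and the others overlapped it. Its log2 fold change was -0.17 (FDR 0.384) with eIF4A1, -0.12 (FDR 0.545) with eIF4A2 and -0.52 (SE 0.16, FDR 0.0179) with DDX6. The last call was lost without total RNA replicate 2 (-0.44, FDR 0.0739) and without DDX6 IP replicate 2 (-0.44, FDR 0.0743) or 3 (-0.49, FDR 0.0586).

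**Figure D5:**
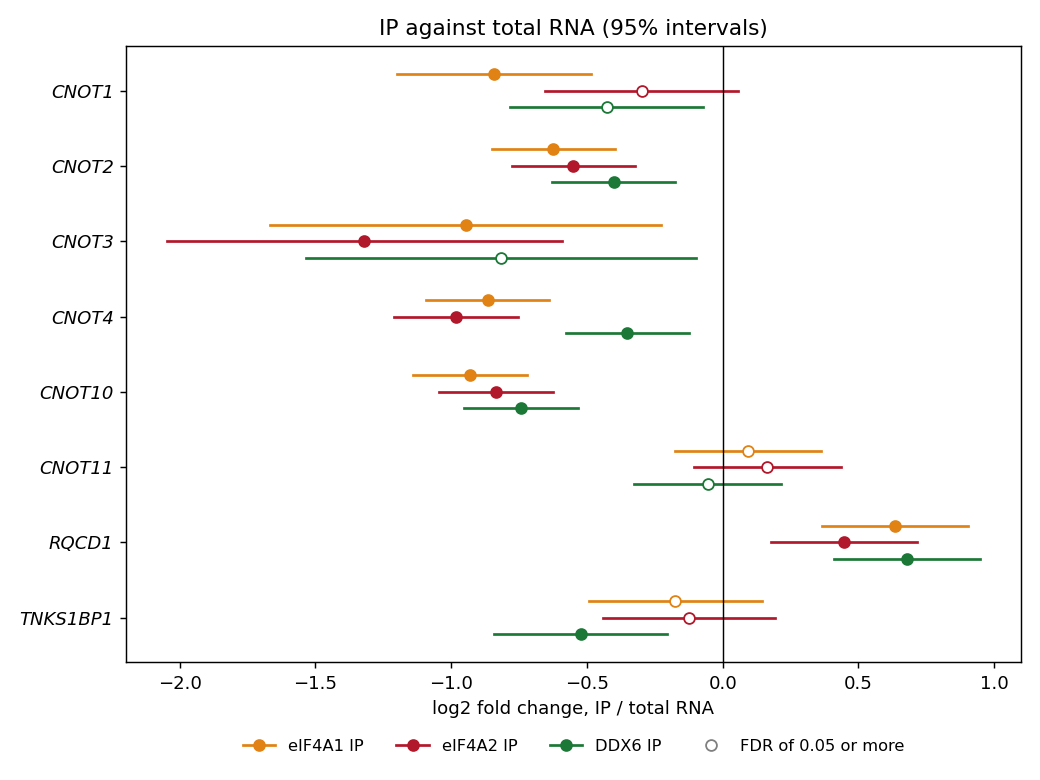
Log2 fold change of each IP against the shared total RNA libraries for the 8 mRNAs, with 95% intervals from the fit across all genes; filled points have an FDR below 0.05. RQCD1 lies to the right of 0 in each IP (0.45 to 0.68), CNOT10 to the left (-0.93 to -0.74), and CNOT4 is at -0.98 with eIF4A2 and at -0.35 with DDX6.

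The IPs were also tested directly against each other, since calls against total RNA leave their differences untested. Between the eIF4A2 and the DDX6 IP 1 member was called, CNOT4, which was lower with eIF4A2 (log2 -0.63, SE 0.12, FDR 0.00415). Here 21.1% of all genes were called, 9.82% higher and 11.3% lower. With the replicate block CNOT3 (-0.56, FDR 0.0478) was lower and TNKS1BP1 (0.40, FDR 0.0140) higher with eIF4A2, which made 3 of 8. The block called 40.5% of all genes, a share close to that of the members. With no filter CNOT3 was called too (FDR 0.0443), in a fit that called 12.8%.

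Between the eIF4A2 and eIF4A1 IPs edgeR called 0 of 8 members, where 1.06% of all genes were called, 0.973% higher and 0.0858% lower. DESeq2 also called 0, and 1 member had an unadjusted p below 0.05. With the replicate block CNOT1 was higher with eIF4A2 than with eIF4A1 (log2 0.54, FDR 0.0173, same-numbered libraries higher in 3 of 3), in a fit that called 15.8% of all genes. Between the DDX6 and eIF4A1 IPs edgeR called 0 members, where 0.0916% of all genes were called, 0.0801% higher and 0.0114% lower. There were 2 with an unadjusted p below 0.05, and DESeq2 (FDR 0.000568) and the replicate block (log2 0.51, FDR 0.0116) each called CNOT4, higher with DDX6. Those fits called 3.1% and 9.9% of all genes. For RQCD1 no difference between IPs passed the test, with log2 differences of -0.19, 0.04 and -0.23 and SE of 0.14.

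In the TNRC6 experiment the targeted mRNAs were low in the siRNA libraries, with TNRC6A at 178 and 188 CPM against 40.5 and 64.7 CPM and TNRC6B at 67.6 and 73 CPM against 17.7 and 26.3 CPM. With 2 libraries per group edgeR called 0 of 8 members and 0% of 14064 genes, the targets included. No member had an unadjusted p below 0.05 (lowest 0.260), and DESeq2 called 0. With the replicate block 1 of 8 members passed, TNKS1BP1, in a fit that called 5.43% of all genes. RQCD1 stood at 159 and 134 CPM with control siRNA and at 172 and 146 CPM with TNRC6A/B siRNA, a log2 fold change of 0.11 (SE 0.21). TNKS1BP1 had the largest value, 0.55 (SE 0.44), from 51.9 and 25.9 CPM to 70.1 and 44.2 CPM. Leaving out 1 library at a time moved this value between 0.142 and 1.14. Its 2 control libraries differed more from each other than the groups did.

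A list of 39 other genes, of deadenylation, its adapters, decapping and 5 cap or poly(A) factors, gives the surroundings of these changes. In input RNA 18 of them were called higher with CNOT1 siRNA and 7 lower, in subpolysomal RNA 13 and 7, and in polysomal RNA 16 and 6. The shares of all genes called higher and lower were 19.6% and 21% in input, 17.6% and 24.5% in subpolysomal and 17.1% and 14.6% in polysomal RNA. The recruiting adapters made up the larger part of the increases, with 11 of 17 higher and 3 lower in input. Among them ZFP36, which brings Ccr4-Not to AU-rich elements, had the largest increase in input (log2 1.23, FDR 0.00156) and in polysomal RNA (2.15, FDR 0.000323), and PUM2, a Pumilio-element reader, in subpolysomal RNA (0.85, FDR 4.87e-06).

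The catalytic partners of the scaffold did not move as one group. In input CNOT6L (log2 0.72) and CNOT8 (log2 0.36) rose, while CNOT6 (log2 -0.76, FDR 2.63e-06, the lowest of the list) and CNOT7 (log2 -0.56) fell. The lowest values elsewhere were those of PABPC1, the poly(A)-binding protein, in subpolysomal RNA (-1.21, FDR 3.14e-05) and of DCP2, the decapping enzyme, in polysomal RNA (-0.86, FDR 9.47e-06). In the IPs against total RNA 12, 15 and 19 of the 39 were higher and 10, 9 and 6 lower with eIF4A1, eIF4A2 and DDX6. Of all genes 26.1%, 24.5% and 22.7% were higher and 26.5%, 25.8% and 23.3% lower, so that the counts with eIF4A1 were near those shares. The extremes were PABPC1 (1.55) and EIF4A1 (-2.26) with eIF4A1, EIF4A2 (1.27) and PARN (-0.97) with eIF4A2, and PABPC1 (2.46) and again EIF4A1 with DDX6. EIF4A1, EIF4A2 and DDX6, all in the list, encode the proteins that the antibodies target.

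Over the 12 group means, centred within each experiment and without the suspect pair, CNOT2 and CNOT3 followed each other with r = 0.933. The points share libraries, depth and scaling, and r is a description. CNOT10 correlated with CNOT2 at r = 0.834 and with its module partner CNOT11 at -0.241. Among 8819 genes the 2 most like each member were CLDN12 and ZNF678 for CNOT1 (r = 0.964 and 0.963), BRIX1 and DNAJA2 for CNOT2 (0.991 and 0.988), and ASMTL and AIMP2 for CNOT3 (0.99 and 0.986). They were CKAP2L and COIL for CNOT4 (0.973 and 0.947), PGM3 and TRMT10C for CNOT10 (0.985 and 0.968) and CECR5 and VGLL4 for RQCD1 (0.978 and 0.965). HIP1R and MYO9B were most like TNKS1BP1, and CNOT11 had the loosest neighbours, MGAT2 and SIAH1 (0.823 and 0.774).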

How the data were processed

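RNA-Seq was done on 40 HEK293 libraries in 12 groups with a stranded TruSeq kit. The authors aligned reads to hg19 with TopHat2 and counted them with htseq-count, without stating its strand option, and deposited 1 file of raw counts per gene symbol and library. A further deposited table of the authors' IP tests (fold changes, mean abundance, p-values) was not used. The members and lists were chosen with earlier results of these data known.

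Counts were analysed with edgeR 4.0.16 (R 4.3.3, limma 3.58.1), with 1 fit per experiment. Genes were kept by filterByExpr, scaled by TMM and tested by two-sided quasi-likelihood F-tests in 13 comparisons. A gene was called at a false discovery rate (FDR, Benjamini-Hochberg, adjusted within each comparison across every tested gene) below 0.05. SE are the log2 fold change divided by the square root of F, and 95% intervals use the normal quantile. The gradient fit left out both polysomal libraries labelled replicate 3. The code was tested on simulated data. No 2 libraries were identical.

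Results were recomputed with DESeq2 1.42.0, with RLE scaling, unfiltered, with only the compared libraries, with all 24 gradient libraries as labelled, with a replicate block, and leaving out each library in turn. Libraries with the same number deviated from the means of their groups with correlations of r = 0.184 to 0.782 in the RIP groups, 0.195 to 0.353 in input, 0.578 to 0.729 in subpolysomal and 0.29 to 0.574 in polysomal RNA between the siRNAs, every pair above 0.1. Between the siRNAs of the TNRC6 experiment r was 0.862, with 2 libraries per group. The numbers were therefore taken to pair the libraries in these comparisons, but not between polysomal and subpolysomal RNA with control siRNA (-0.471 to 0.236). The main fits hold group means only and ignore this pairing, which enters only through the replicate block. In the gradient experiment the block also pairs the pools with each other, so it cannot isolate a split between replicates that differs between pools. The third RIP total RNA library is replicate 3 by its title and replicate 2 by its description, and the title was used.

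Named genes were the 8 members in every comparison, the called list gene with the highest and that with the lowest fold change, and, for each member, the 2 genes with the highest r of log2 CPM group means. Positions came from GENCODE release 44 lifted to GRCh37.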

Additional observations from a re-analysis of the deposited data

Results flagged for a closer look

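CNOT1 in the polysomal library labelled control replicate 3 (28.3 CPM) and in that labelled CNOT1 siRNA replicate 3 (631 CPM) lay far from the other 3 libraries of their groups, at a gap of 0.935 and 0.987 of the group's range. CNOT4 in the library labelled control replicate 3 (48.1 CPM) stood apart in the same way, with a gap of 0.904. Of 48 groups of 4 libraries tested, chance would give such a gap in about 1 in 20.

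The CNOT1 siRNA effect on CNOT1 differed between pools, by 2.29 (log2) between subpolysomal and input RNA and by -2.30 between polysomal and subpolysomal RNA, the second without the suspect pair. That pair was left out because of its CNOT1 values, so the second difference is a description. For CNOT3 the same differences were -0.58 and 0.72, and each was lost when 1 of several libraries was left out. No cause of these differences was tested.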

How the results depend on the processing

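Members held at least 257 counts in each library, and what limits the precision beyond that was not tested. With all 24 gradient libraries as labelled the members called numbered 2 in input, 1 in subpolysomal and 0 in polysomal RNA. That fit called 29%, 32.1% and 0% of all genes there. For the subpolysomal minus input and the polysomal minus subpolysomal effect it called 0 members, and 3.11% and 5.66% of all genes. Fitting only the compared libraries gave 1 member in subpolysomal RNA (26.9% of all genes) and 1 for the polysomal minus subpolysomal effect (9.46% of all genes). Without a filter there was 1 in subpolysomal RNA (20% of all genes) and 2 between the eIF4A2 and DDX6 IPs (12.8% of all genes). The replicate block gave 5 members in subpolysomal RNA, 1 between the eIF4A2 and eIF4A1 IPs and 1 between the DDX6 and eIF4A1 IPs. It called 47.7%, 15.8% and 9.9% of all genes there. It gave 3 between the eIF4A2 and DDX6 IPs (40.5% of all genes) and 1 after TNRC6A/B siRNA. The last was TNKS1BP1 (0.59, FDR 0.0133, 2 pairs only), in a fit that called 5.43% of all genes. The block changed no call other than those given with their values. DESeq2 called 1 between the DDX6 and eIF4A1 IPs (3.1% of all genes). The cause of these changes was not tested. Signs turned for polysomal CNOT11 (-0.0341 with DESeq2, -0.0338 with RLE), for CNOT11 between polysomal and subpolysomal RNA of control cells (-0.0374 with the block), and with all 24 libraries for the polysomal minus subpolysomal effect of CNOT1 (0.746), CNOT2 (-0.00719), CNOT4 (-0.13) and CNOT10 (-0.0385). Leaving out 1 library at a time turned signs of uncalled members, with ranges of -0.0613 to 0.402 for TNKS1BP1 in subpolysomal RNA, -0.0233 to 0.104 for CNOT11 in polysomal RNA, -0.103 to 0.0458 for CNOT4 in subpolysomal minus input, -0.0293 to 0.0492 for RQCD1 in subpolysomal minus input, -0.0416 to 0.0384 for RQCD1 in polysomal minus subpolysomal, -0.0264 to 0.152 for CNOT10 in polysomal against subpolysomal control RNA. The others ranged over -0.0657 to 0.0939 for CNOT11 in polysomal against subpolysomal control RNA, -0.00509 to 0.141 for CNOT11 in the eIF4A1 IP, -0.129 to 0.00466 for CNOT11 in the DDX6 IP, -0.0356 to 0.17 for CNOT11 in eIF4A2 against eIF4A1, -0.0338 to 0.209 for TNKS1BP1 in eIF4A2 against eIF4A1, -0.0911 to 0.461 for CNOT3 in DDX6 against eIF4A1. The last were -0.00546 to 0.0915 for RQCD1 in DDX6 against eIF4A1, -0.0378 to 0.239 for CNOT1 in eIF4A2 against DDX6, -0.118 to 0.0149 for CNOT2 in the TNRC6 experiment, -0.511 to 0.392 for CNOT3 in the TNRC6 experiment, -0.00821 to 0.244 for RQCD1 in the TNRC6 experiment. The members called then numbered 5 in each case in input, 3 to 5 in subpolysomal and 4 to 5 in polysomal RNA, 1 to 2 for both differences between pools, 6 between control pools, 5 to 6, 4 to 5 and 3 to 5 with eIF4A1, eIF4A2 and DDX6, 1 between eIF4A2 and DDX6 and 0 in the 3 remaining comparisons. Shares of all genes were not computed for these fits, although calls over all genes changed too. With DDX6 the main fit called 3965 higher and 4079 lower of 17474 genes. Without DDX6 IP replicate 2 it was 3214 and 3396 of 17884.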

Other observations

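Among the 39 listed genes, calls between the IPs were as follows. Of the 10 decapping genes 4 were higher with DDX6 than with eIF4A1, and DCP1B, a decapping coactivator, had the largest difference (log2 1.74, FDR 0.0127) and DDX6 the smallest called one (0.95, FDR 0.0330), where 0.0801% of all genes were higher. Against the DDX6 IP, 6 of these 10 were lower with eIF4A2 and 1 was higher (11.3% and 9.82% of all genes), with DCP1B lowest (-1.68, FDR 0.00200), while EIF4A1 was the highest gene of the whole list (1.66, FDR 0.00468). Between the eIF4A2 and eIF4A1 IPs 4 of the 39 were higher with eIF4A2 (0.973% of all genes), from EIF4ENIF1 (0.70, FDR 0.0436) to EIF4A1 (1.91, FDR 0.0120). In control cells 15 were higher and 15 lower in polysomal than in subpolysomal RNA, from TNRC6B (1.32, FDR 3.3e-11) to PABPC1 (-3.68, FDR 3.45e-12), near the 33.3% and 38.8% of all genes. The CNOT1 siRNA effect was higher in polysomal than in subpolysomal RNA for 8 and lower for 5 (10.1% and 7.48% of all genes), with ZFP36 highest (2.16, FDR 0.00313) and CNOT7 lowest (-0.68, FDR 0.00797). Between subpolysomal and input RNA it was higher for 5 and lower for 5 (6.33% and 6.77% of all genes), from DDX6 (0.58, FDR 0.0248) to ZFP36 (-1.24, FDR 0.0327).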
